A study of Homo sapiens with 18 samples.

Results

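The subject of this report is the difference between the irradiation responses of HCT116 and MCF10A cells, taken as the interaction contrast (HCT116 irradiated minus HCT116 non-irradiated) minus (MCF10A irradiated minus MCF10A non-irradiated) on the log2 scale. It used the 12 monoculture libraries of the 18 in the series, 3 in each of 4 groups. Of 40916 gene symbols listed, 19600 had at least 1 count in each of the 4 groups and form the set described here. In this set, 16880 passed the filter on low counts and were tested, and 2720 did not pass. A further 9961 symbols had counts in some of the groups but not in all, so that a response in at least 1 line could not be estimated for them.

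MCF10A is a non-tumorigenic human mammary epithelial line, here carrying H2B-GFP, a histone fused to a fluorescent protein, and grown in medium with horse serum, EGF, hydrocortisone, cholera toxin and insulin. HCT116 is a human colorectal carcinoma line, here unlabelled, grown in McCoy's 5A medium with fetal bovine serum, and described in the series text as p53-null. Both lines were sampled without irradiation (NIR) and after a dose of 10 Gy (IR). RNA was harvested at day 2 according to the sample titles and at 72 h according to the series text. The lines differed in tissue of origin, tumour state, medium, the GFP label and the described p53 status, so these cannot be told apart in any difference reported here. The samples are called biological replicates, and p-values measure the spread between these libraries.

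Ionizing radiation breaks both DNA strands, and the break-sensing kinases ATM and ATR stabilise p53, a transcription factor that induces cell-cycle inhibitors, apoptosis factors and repair genes. Cells that stay alive stop dividing, lose transcripts of the mitotic and replication machinery, and may enlarge and become senescent, with a secretory programme and expanded lysosomes. Ribosome production, glycolysis and stress pathways are often altered in cells that have stopped dividing, and how they move depends on the cell type.

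The libraries held between 25737818 and 40839835 counts and 19356 to 22816 genes with a count. The 12 basal mammary markers summed to between 12336 and 18528 counts per 1000000 library counts (CPM) in MCF10A libraries and to between 688 and 1462 CPM in HCT116 libraries. The 12 intestinal markers summed to between 16.8 and 31.2 CPM in MCF10A, where 4 of them were at 0, and to between 772 and 1716 CPM in HCT116, where CDX1 was at 0. Immune and endothelial markers summed to at most 9.0 CPM and 5.47 CPM. The 8 fibroblast markers summed to between 121 and 133 CPM in MCF10A NIR, 248 and 262 CPM in MCF10A IR and 29.7 and 47.5 CPM in HCT116, and COL3A1 was at 0 in MCF10A. Their sum was thus higher in all irradiated MCF10A libraries, as were the levels of the matrix genes FN1 and FBN1 described below, and its part in those results was not tested. Mitochondrially encoded genes took 5.19% ± 0.116 (SD, n = 3) of counts in MCF10A NIR, 6.20% ± 0.146 in MCF10A IR, 8.62% ± 0.172 in HCT116 NIR and 11.99% ± 0.430 in HCT116 IR. CPM leaves out the scaling factors of the fit (edgeR's TMM). These were 0.941 to 0.950 in MCF10A NIR, 0.905 to 0.917 in MCF10A IR, 1.067 to 1.089 in HCT116 NIR and 1.069 to 1.084 in HCT116 IR. Levels that lie close between the lines in CPM can thus change order under that scaling.

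The irradiation responses of the lines differed for 6550 of the 16880 genes tested (38.8%), where a gene was called at an adjusted p under 0.05 by edgeR's quasi-likelihood test with Benjamini-Hochberg adjustment, the test behind every call below. The response was higher (more positive) in HCT116 for 2745 genes (16.3%) and lower for 3805 (22.5%). In bulk RNA, fewer cells in a given state and less RNA per cell cannot be told apart. At a difference of at least 2-fold the counts were 422 (2.5%) higher and 1356 (8.03%) lower. Over all 18179 genes of the fit, those without counts in all groups included, 37.3% were called. Within the lines, 8473 genes responded in HCT116 (50.2%) and 7984 in MCF10A (47.3%). Here 4073 genes rose (24.1%) and 4400 fell (26.1%) in HCT116, and 4560 rose (27.0%) and 3424 fell (20.3%) in MCF10A.

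The balance between higher and lower calls changed with the scaling and with the filter on low counts. It also changed when HCT116 IR replicate 2 or any 1 of the MCF10A IR libraries was left out. The higher calls made up 41.9% of all difference calls as fitted, and between 40.0% and 53.4% under the alternatives that kept all libraries. They made up 53.4% when mitochondrially encoded genes and the 10 most abundant genes were left out of the scaling, 53.3% with no filter and 52.2% with a stricter one. Leaving out HCT116 IR replicate 2 gave 54.2%, and leaving out MCF10A IR replicate 1, 2 or 3 gave 53.8%, 54.3% and 54.9%. The median difference over all genes tested was -0.09 on the log2 scale and ranged from -0.11 to 0.02, and the list medians below are to be read relative to it. List counts are to be read against the shares over all genes tested, given above.

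**Figure D1:**
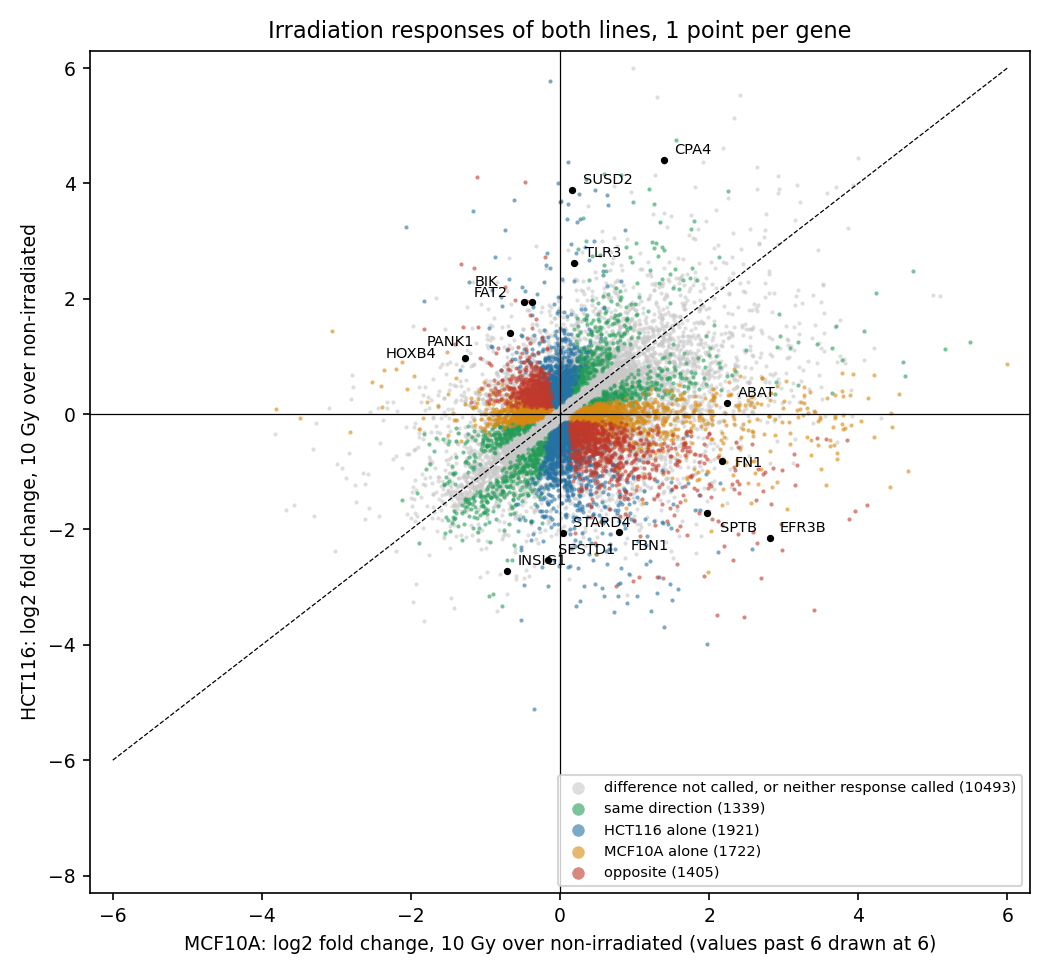
Each point is a gene tested with counts in all 4 groups, with its log2 fold change after 10 Gy in MCF10A (x axis) and in HCT116 (y axis). The dashed line marks equal responses. Genes whose difference was called lie away from it, the 1405 with called responses of opposite sign in both lines have their own colour, and black points are genes named in the text.

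The 6550 called differences were of several kinds. Both lines responded in opposite directions for 1405 genes (8.32% of genes tested), of which 560 (3.32%) rose in HCT116 and fell in MCF10A and 845 (5.01%) fell in HCT116 and rose in MCF10A. A response was called in HCT116 alone for 1921 genes, 835 of them up and 1086 down. It was called in MCF10A alone for 1722 genes, 1062 up and 660 down. Both lines moved the same way but by different amounts for 1339 genes, and for 163 genes the difference was called although neither response was. The median size of the difference was 1.10 (log2) among the genes that fell in HCT116 and rose in MCF10A and 0.75 among those with the reverse pattern. Genes called in 1 line alone had median differences between 0.47 and 0.73.

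**Figure D2:**
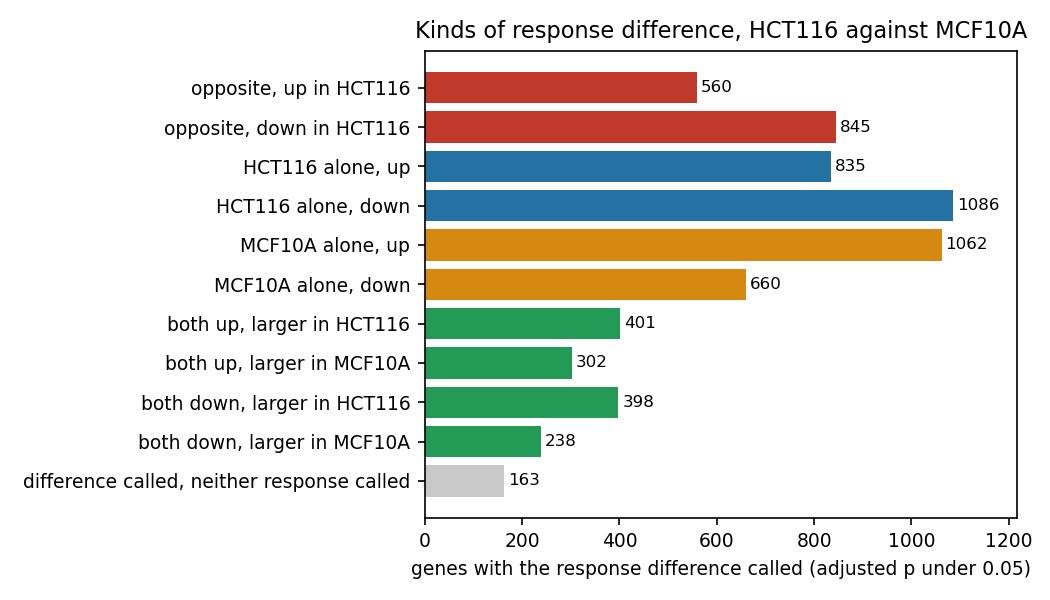
Bars give the number of genes with a called response difference in each kind, out of 16880 tested. The largest bars are genes down in HCT116 alone (1086) and up in MCF10A alone (1062), and the opposite responses together make up 1405.

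The opposite responses were mostly modest in size, and their count changed with the libraries left out, the filter and the scaling. A change of at least 2-fold in each line was seen for 7 genes up in HCT116 and 80 genes down in HCT116. The count of genes down in HCT116 and up in MCF10A was 532 without HCT116 IR replicate 2, and 569, 537 and 553 without MCF10A IR replicate 1, 2 or 3. In these same fits the genes up in HCT116 and down in MCF10A numbered 704, 724, 719 and 726, so that the order of the classes was reversed. It was also reversed with no filter (746 up and 614 down) and with the stricter filter (717 and 652). The scaling that left out mitochondrial and abundant genes (795 and 620) reversed it too, and thus 7 of 22 alternative fits did so. In these 7 fits the median MCF10A response was between -0.0041 and 0.0185, against 0.1054 as fitted. It was between 0.0499 and 0.1344 in the other alternatives. The median HCT116 response was between 0.0127 and 0.0247 in the 7 fits, against 0.0068 as fitted. The part of this shift in the order of the classes was not tested. Of the 560 genes up in HCT116, 487 kept the class under all 5 scaling alternatives and 300 in all 12 fits that left out a library. Of the 845 genes down in HCT116, 591 and 364 did so. The signs of both responses were kept in all of these fits for 560 of 560 and 844 of 845 genes.

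Among the genes that rose in HCT116 and fell in MCF10A, the largest difference under the rule for naming genes was that of BIK, which encodes a pro-apoptotic protein of the BCL2 family (chr22:43110750-43129712, GRCh38.p14). BIK levels were 7.55, 7.92 and 7.67 CPM in HCT116 NIR and 30.2, 30.5 and 27.3 CPM in HCT116 IR. In MCF10A they were 5.91, 4.99 and 4.44 CPM without irradiation and 3.42, 3.28 and 3.85 CPM after it. Irradiated and non-irradiated libraries did not overlap in either line, and the difference was 2.42 ± 0.190 (SE, log2). PANK1, a pantothenate kinase of coenzyme A synthesis (chr10:89579495-89645242), had 10.7, 9.73 and 10.6 CPM in HCT116 NIR and 28.3, 27.6 and 25.4 CPM in HCT116 IR. Its MCF10A levels were 16.3, 17.3 and 17.2 CPM before and 9.96, 9.99 and 10.8 CPM after irradiation. PANK1 was therefore lower in HCT116 than in MCF10A without irradiation and higher after it, and its responses differed by 2.07 ± 0.145.

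FAT2, an atypical cadherin (chr5:151504092-151594819), rose in HCT116 from 2.55, 2.61 and 3.00 CPM to 10.1, 10.4 and 10.7 CPM. It fell in MCF10A from 298, 278 and 303 CPM to 215, 224 and 210 CPM, so that MCF10A still held the higher level after irradiation. The difference for FAT2 was 2.33 ± 0.106. HOXB4, a homeobox transcription factor (chr17:48575507-48578350), rose in HCT116 from 11.9, 15.0 and 19 CPM to 30.2, 29.7 and 30.0 CPM. In MCF10A it fell from 3.03, 2.25 and 3.52 CPM to 0.588, 1.17 and 1.62 CPM. HOXB4 differed by 2.26 ± 0.308, with the spread largest in the non-irradiated HCT116 libraries.

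In the reverse class, EFR3B had the largest difference. EFR3B encodes a membrane anchor of a phosphatidylinositol kinase complex (chr2:25042076-25159135). It fell in HCT116 from 10.9, 9.23 and 6.62 CPM to 2.01, 1.86 and 2.18 CPM and rose in MCF10A from 3.35, 1.92 and 1.26 CPM to 16.3, 11.4 and 16.7 CPM. The order of the lines was thus exchanged by irradiation, with a difference of -4.96 ± 0.340 and an adjusted p of 2.21e-11 by edgeR's quasi-likelihood test. SPTB, an erythroid beta spectrin of the membrane skeleton (chr14:64746283-64879907), fell in HCT116 from 23.0, 23.1 and 25.3 CPM to 7.86, 6.32 and 7.50 CPM. It rose in MCF10A from 1.26, 0.958 and 1.23 CPM to 5.33, 4.08 and 3.71 CPM, a difference of -3.69 ± 0.238 in which the lines drew closer.

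Genes of the extracellular matrix completed the class. FN1, which encodes fibronectin (chr2:215360865-215436068), rose in MCF10A from 1369, 1288 and 1317 CPM to 6053, 5360 and 5892 CPM and fell in HCT116 from 97.4, 62.7 and 64.2 CPM to 39.6, 44.2 and 43.2 CPM. The FN1 level of HCT116 was 5.64% of that of MCF10A without irradiation and 0.734% after it, and the difference was -2.99 ± 0.135. FBN1, which encodes the microfibril protein fibrillin-1 (chr15:48408313-48645709), rose in MCF10A from 67.1, 56.4 and 63.0 CPM to 101, 104 and 103 CPM. It fell in HCT116 from 6.22, 5.50 and 5.07 CPM to 1.19, 1.52 and 1.32 CPM, a difference of -2.82 ± 0.154. The gap between the lines widened for both genes.

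**Figure D3:**
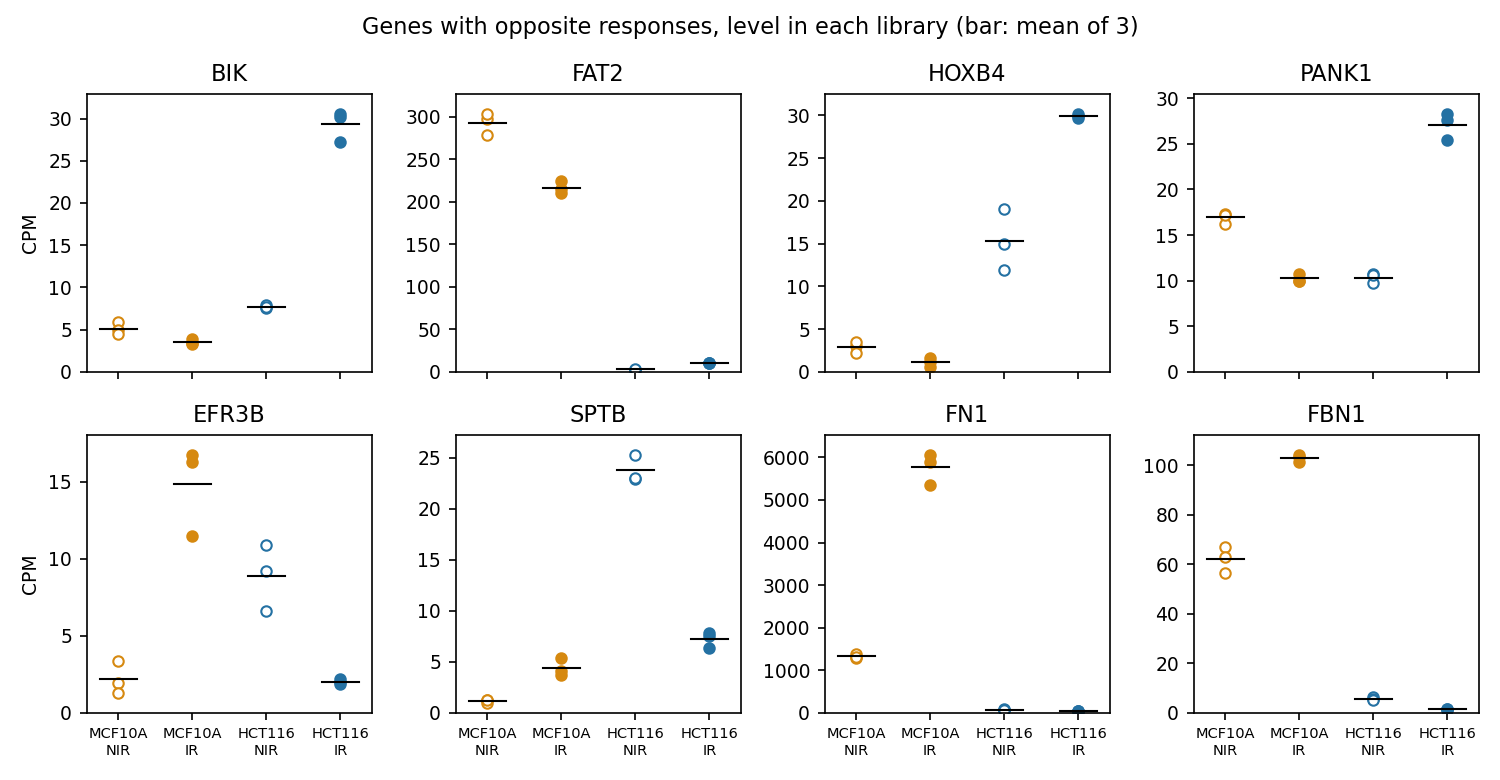
Level in CPM of 8 genes with opposite responses in each of the 12 libraries (open circles NIR, filled circles IR, bars the mean of 3; linear axes from 0). The upper row rose in HCT116 and fell in MCF10A, the lower row did the reverse, and circles of the 2 treatments do not overlap within a line.

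Some genes responded by at least 2-fold in 1 line while the other line showed a change below 0.25 on the log2 scale that was not called. There were 42 such genes up and 85 down in HCT116, and 58 up and 12 down in MCF10A. Responses of at least 2-fold were called for 5.18% of genes up and 6.37% down in HCT116, and for 7.63% up and 2.55% down in MCF10A, whatever the other line did. SUSD2, a membrane protein with a sushi domain, rose in HCT116 from 8.91, 11.2 and 11.8 CPM to 166, 145 and 155 CPM. In MCF10A it was at 38.8, 42.0 and 39.0 CPM before and 41.8, 43.5 and 43.5 CPM after irradiation, and the difference was 3.72 ± 0.116. TLR3, the endosomal sensor of double-stranded RNA, rose in HCT116 from 4.63, 4.94 and 4.78 CPM to 28.9, 27.6 and 31.4 CPM, and was at 13.0, 14.9 and 12.6 CPM and then 15.6, 13.8 and 15.2 CPM in MCF10A. Both genes were lower in HCT116 than in MCF10A without irradiation and higher after it.

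KRT81, a hair keratin, was the third gene of this kind, with a difference of 2.31 ± 0.218. Its HCT116 level of 7.37 ± 0.840 CPM (SD, n = 3) after irradiation was 0.31% of the level of irradiated MCF10A, and reads could be shared with near-identical keratins. Several genes abundant in MCF10A rose in the same way from near 0 in HCT116. KRT5, a basal epithelial keratin, had 0.289, 0.0621 and 0 CPM in HCT116 NIR and 1.25, 2.60 and 0.777 CPM in HCT116 IR, or 0.0554% of the MCF10A IR level, and KRT17 reached 0.185% of it. TGFBI, a matrix protein, was at 0 in HCT116 NIR and at 0.00709% of the MCF10A IR level in HCT116 IR. The part that MCF10A RNA in the HCT116 libraries could have in the changes of these genes was not tested.

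Genes lower after irradiation in HCT116 alone included SESTD1, a protein with spectrin repeats, and STARD4, a carrier of cholesterol between membranes. SESTD1 fell in HCT116 from 87.7, 66.0 and 63.7 CPM to 11.9, 14.2 and 11.1 CPM, and in MCF10A was at 72.1 ± 3.97 and 61.9 ± 5.28 CPM (SD, n = 3). STARD4 fell in HCT116 from 78.1, 86.2 and 81.9 CPM to 20.6, 17.7 and 20.3 CPM, and in MCF10A was at 80.8 ± 6.80 and 79.7 ± 3.20 CPM. Both genes thus started from similar levels in the lines and parted after irradiation, with differences of -2.36 ± 0.142 and -2.11 ± 0.101. C6orf141 differed by -2.02 ± 0.184.

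Other genes responded in MCF10A alone. ATP2C2, a calcium and manganese pump of the secretory pathway, rose in MCF10A from 1.38, 1.13 and 1.71 CPM to 5.80, 5.65 and 3.65 CPM, and was at 24.3 ± 1.02 and 21.1 ± 0.475 CPM (SD, n = 3) in HCT116. ABAT, the transaminase that breaks down the transmitter GABA, rose in MCF10A from 3.03, 1.52 and 1.88 CPM to 8.67, 8.10 and 12.5 CPM. ATP2C2, ABAT and TLCD2 differed by -2.09, -2.05 and -1.97, and for ATP2C2 and ABAT the MCF10A level moved toward that of HCT116. CDH4, which encodes R-cadherin, fell in MCF10A from 37.0, 35.5 and 33.2 CPM to 12.4, 11.6 and 13.9 CPM, and was near 1.4 CPM in both HCT116 groups. ERVMER34-1, an envelope gene of an endogenous retrovirus, and MT1X, a metallothionein, also fell in MCF10A alone. Their differences were 1.46 and 1.45, and reads of both could be shared with related copies.

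Where both lines moved the same way, the sizes still parted by several fold for some genes. CPA4, a secreted carboxypeptidase, rose in HCT116 from 17.6, 28.1 and 31.4 CPM to 620, 494 and 498 CPM and in MCF10A from 37.0, 30.3 and 28.9 CPM to 77.5, 71.5 and 93.8 CPM, a difference of 3.01 ± 0.191. ZBED2, a zinc finger transcription factor, rose more in HCT116, by 2.01 ± 0.141. MYL9, a myosin regulatory light chain, and DNAJB2, a co-chaperone, rose more in MCF10A, with differences of -1.44 and -1.30. INSIG1, which retains the sterol-sensing machinery in the endoplasmic reticulum, fell in HCT116 from 73.9, 80.2 and 72.8 CPM to 10.4, 10.3 and 13.6 CPM and in MCF10A from 54.4, 57.2 and 57.9 CPM to 34.0, 30.9 and 34.9 CPM. CDKN1C, the CDK inhibitor p57, fell more in HCT116 as well, with a difference of -1.88 ± 0.312. CHDH, choline dehydrogenase, and SAPCD2 fell more in MCF10A, with differences of 1.48 and 1.25.

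The p53 target genes responded more in HCT116. Of 38 tested, 33 rose in HCT116 and 31 in MCF10A, and the difference was called higher in HCT116 for 29, lower for 5 and was not called for 4, against 16.3% and 22.5% of all genes. These rises go against the description of HCT116 as p53-null, and HCT116 stands throughout for the libraries labelled HCT116. The list's median response was 1.19 in HCT116 and 0.61 in MCF10A, and the median difference was 0.70. CDKN1A, the CDK inhibitor p21, rose from 275, 326 and 352 CPM to 1688, 1585 and 1508 CPM in HCT116 and from 178, 177 and 160 CPM to 567, 585 and 619 CPM in MCF10A, and these responses differed by 0.50 ± 0.0982. MDM2, the ubiquitin ligase of p53, differed by 0.35 ± 0.0724 and rose in both lines. TP53I3, a quinone oxidoreductase, rose from 10.1, 11.4 and 12.3 CPM to 89.9, 81.6 and 90.8 CPM in HCT116 and from 39.8, 38.2 and 33.7 CPM to 72.1, 76.1 and 70.6 CPM in MCF10A. The TP53I3 difference was 1.94 ± 0.113, and those of the kinase PLK2 and the antiproliferative factor BTG2 were 1.85 and 1.43.

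Several p53 targets rose in HCT116 with values near 0 in MCF10A that were not called. The phosphatase PPM1D had log2 fold changes of 1.46 and 0.05, the mitochondrial protein TRIAP1 1.11 and -0.0035, and the nuclease AEN 1.07 and 0.11, in HCT116 and MCF10A respectively. A smaller rise in MCF10A was called for FDXR, ferredoxin reductase, with 1.47 and 0.19, and for the death receptor FAS, with 1.71 and 0.36. The 5 targets with a lower response in HCT116 were CCNG2, PHLDA1, TP53INP2, GADD45A and GDF15, the first 4 of which are mentioned after their values were seen. GDF15, a stress cytokine, rose from 149, 180 and 202 CPM to 503, 410 and 445 CPM in HCT116 and from 9.82, 11.0 and 12.4 CPM to 35.6, 47.5 and 41.0 CPM in MCF10A. Its difference of -0.60 ± 0.153 became -0.38 without MCF10A IR replicate 2, with an adjusted p of 0.0564 by edgeR's quasi-likelihood test, and the call was lost.

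Proliferation genes fell in both lines by similar amounts. Of 32 mitosis and cell-cycle genes, 31 fell in HCT116 and 32 in MCF10A, against 26.1% and 20.3% of all genes. Their median responses were -1.45 and -1.31. The difference was lower in HCT116 for 11, higher for 1 and not called for 20, against 22.5% lower and 16.3% higher over all genes. MKI67, the proliferation marker, fell from 1164, 1028 and 1070 CPM to 294, 305 and 308 CPM in HCT116 and from 670, 662 and 700 CPM to 222, 240 and 230 CPM in MCF10A. The MKI67 difference was -0.34 ± 0.0700, or -0.21 without MCF10A IR replicate 2. TOP2A, the topoisomerase of dividing cells, had a difference of 0.15 ± 0.0733 that was not called, with an adjusted p of 0.112 by edgeR's quasi-likelihood test, and was called in 10 of 22 alternatives. Of 34 DNA replication genes, the difference was lower for 8, higher for 5 and not called for 21, shares near those of all genes. In this list 33 genes fell in HCT116 and 34 in MCF10A, against the same 26.1% and 20.3%. PCNA, the polymerase clamp, was an exception, with -0.00019 in HCT116 and -0.86 in MCF10A. The median difference of the replication list, -0.02, changed sign under 11 of the 22 alternatives, 3 of the 5 scalings among them.

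**Figure D4:**
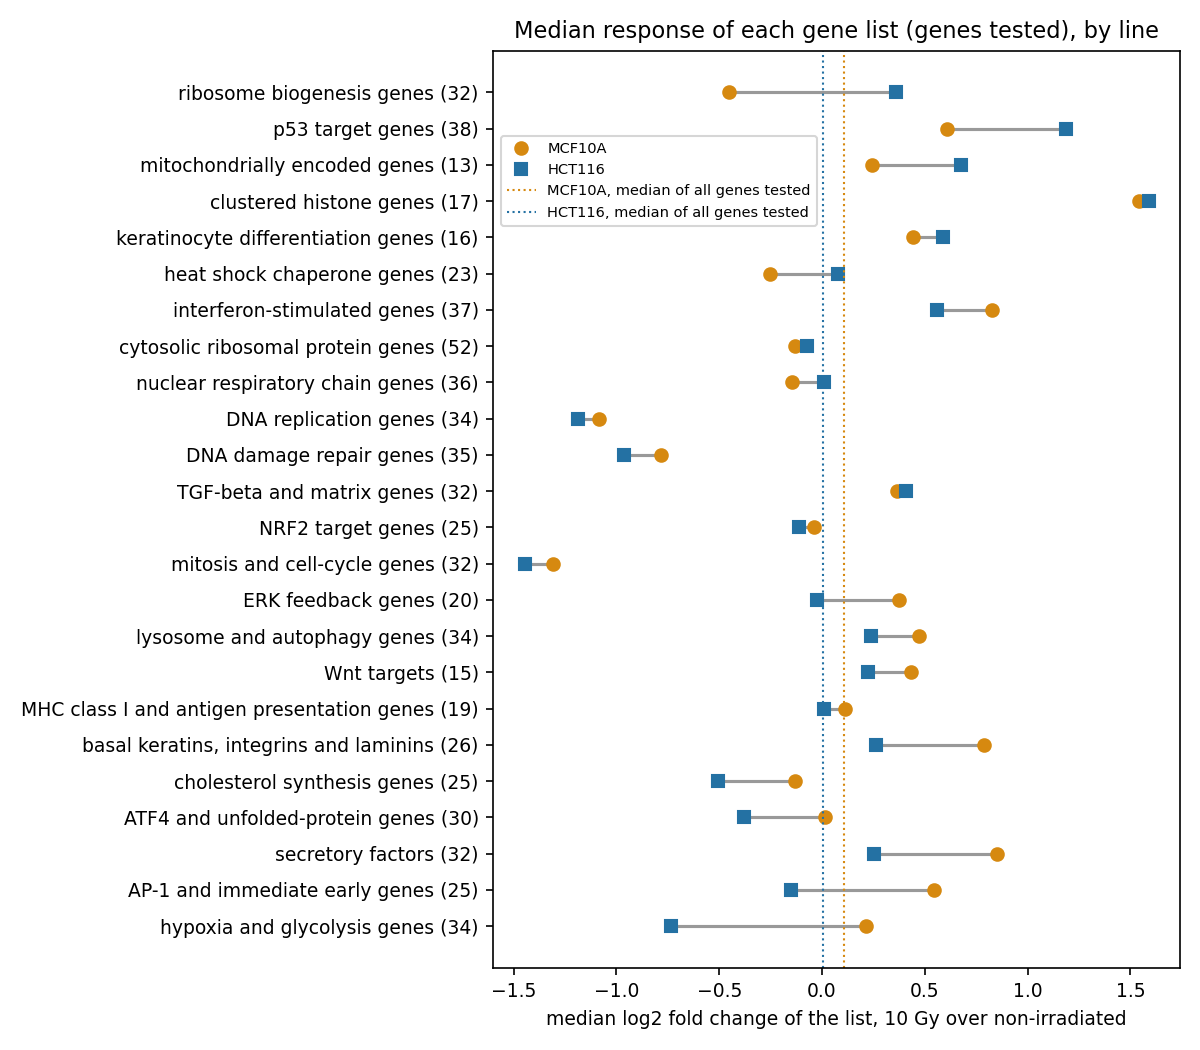
Median log2 fold change after 10 Gy of each list's tested genes in MCF10A (circles) and HCT116 (squares), with the number tested in parentheses and dotted lines at the median of all genes tested. The markers lie farthest apart for hypoxia and glycolysis genes (-0.73 in HCT116 and 0.22 in MCF10A) and ribosome biogenesis genes (0.36 and -0.45).

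Ribosome biogenesis genes, which encode the factors that transcribe, process and assemble ribosomal RNA, moved in opposite directions. Of 32 tested, 21 rose and 5 fell in HCT116, 1 rose and 27 fell in MCF10A, and 17 were opposite responses of the kind up in HCT116. The difference was higher in HCT116 for 29 and lower for 0, and 3 were not called, against 16.3% higher over all genes. The median difference was 0.86 and ranged from 0.82 to 0.96 over the alternatives. Cytosolic ribosomal protein genes differed less, with 11 of 52 higher and 5 lower, against 16.3% and 22.5% of all genes. Their median of 0.05 changed sign without HCT116 NIR replicate 1 or MCF10A NIR replicate 2.

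Promoter windows of RefSeq (GRCh38.p14), from 250 bases before to 50 bases after the annotated start, were searched for 8 short motifs on both strands, and 12446 of the genes tested had a window. The motifs were the E-box CACGTG, the core of the hypoxia response element ACGTG, the box bound by NF-Y (CCAAT), the cyclic AMP response element TGACGTCA, the AP-1 site TGANTCA, the cell-cycle homology region (TTTGAA), the interferon-stimulated response element and the sterol element TCACNCCAC. Every CACGTG is also a match of the shorter ACGTG motif. The E-box, known as a binding site of MYC and related factors, stood in 10 of 27 ribosome biogenesis windows (37.0%), against 9.54% of all genes tested and 7.43% of all 27305 promoters in the table. It stood in 14.2% of the windows of genes with opposite responses up in HCT116 and 6.84% of those down in HCT116. The higher share was not particular to that class. It was 13.5% for genes that fell in both lines and more in HCT116, whose difference was lower. It was 12.3% for genes down in MCF10A alone and 11.8% for those up in HCT116 alone. The lowest share was 6.64%, for genes that rose in both lines and more in MCF10A. Lysosome and autophagy genes, most of whose called differences were lower in HCT116, also held it often, in 7 of 23 windows (30.4%). A match describes the letters only. The promoters of RRP9 (chr3:51941885-51942154, minus strand) and UTP20 (chr12:101279855-101280124, plus strand) are shown as examples of opposite responses with a match, 5′ to 3′, to 20 bases after the start, with CACGTG in capitals.
RRP9: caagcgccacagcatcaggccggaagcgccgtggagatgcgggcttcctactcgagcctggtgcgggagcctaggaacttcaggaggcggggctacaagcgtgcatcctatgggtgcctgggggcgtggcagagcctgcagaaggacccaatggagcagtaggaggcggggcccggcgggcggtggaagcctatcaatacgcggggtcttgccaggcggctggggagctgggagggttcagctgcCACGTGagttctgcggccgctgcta
UTP20: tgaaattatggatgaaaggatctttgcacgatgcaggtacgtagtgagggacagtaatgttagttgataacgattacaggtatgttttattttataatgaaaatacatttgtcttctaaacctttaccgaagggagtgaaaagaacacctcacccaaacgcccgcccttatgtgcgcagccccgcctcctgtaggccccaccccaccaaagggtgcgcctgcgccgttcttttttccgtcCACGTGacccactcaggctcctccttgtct

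RRP9, a component of the U3 snoRNA particle, rose in HCT116 from 38.9, 37.6 and 40.5 CPM to 49.3, 49.9 and 48.1 CPM and fell in MCF10A from 33.7, 36.5 and 34.9 CPM to 19.6, 16.9 and 20.9 CPM. UTP20, of the small-subunit processome, had 62.5, 52.0 and 49.2 CPM and then 65.4, 69.5 and 71.3 CPM in HCT116. In MCF10A it had 121, 120 and 117 CPM and then 59.5, 57.2 and 61.4 CPM. In CPM, MCF10A libraries held more UTP20 before irradiation and HCT116 libraries more after it. With the scaling factors of the fit, the irradiated libraries of the lines overlapped for UTP20. The UTP20 difference was 1.29 ± 0.0962 against 1.16 ± 0.114 for RRP9. RRS1, which acts in assembly of the large subunit, had the largest difference of the list at 1.41 ± 0.124. RRS1 rose from 17.3, 17.2 and 18.9 CPM to 38.4, 32.9 and 34.5 CPM in HCT116 and fell from 30.6, 30.3 and 28.4 CPM to 22.7, 20.6 and 20.9 CPM in MCF10A. LYAR, a nucleolar protein whose searched window held no CACGTG, differed by 1.16 ± 0.0784.

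Subunits of RNA polymerase I, which transcribes ribosomal RNA, also responded higher in HCT116. POLR1A had log2 fold changes of 0.97 in HCT116 and -0.07 in MCF10A, POLR1B 0.81 and -0.27, and POLR1C 0.62 and -0.36. For POLR1D, at 0.08 and -0.03, the difference was not called. The abundant nucleolar proteins NPM1, FBL and NCL had values of -0.47, -0.47 and -0.07 in HCT116 against -0.77, -1.25 and -0.95 in MCF10A, so that the MCF10A value was the lower one for each.

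Hypoxia and glycolysis genes showed the reverse. Of 34 tested, 30 fell and 3 rose in HCT116, 17 rose and 4 fell in MCF10A, and 15 were opposite responses of the kind down in HCT116. The difference was lower in HCT116 for 29, higher for 1 (SLC2A1, a glucose transporter, chosen for mention after its value was seen) and not called for 4, against 22.5% lower over all genes. The median difference was -0.91 and ranged from -0.94 to -0.74 over the alternatives. The list joins targets of the hypoxia-inducible factor with enzymes of glycolysis. ANKRD37, ANGPTL4, the glycolysis regulator PFKFB4 and the enolase ENO2 had the largest differences, of -3.41, -2.26, -1.94 and -1.91.

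The core letters of the hypoxia response element, ACGTG, stood in 14 of 30 windows of this list (46.7%), against 25.8% of all genes tested. The share was not particular to the list: it was 51.9% for ribosome biogenesis genes, 43.5% for lysosome and autophagy genes and 40.0% for TGF-beta and matrix genes. The windows of ANKRD37 (chr4:185396591-185396860, plus strand) and ENO2 (chr12:6914330-6914599, plus strand) are shown as examples with a match, with the same limits and with ACGTG on either strand in capitals. In ANKRD37 the 3 matches include an overlapping pair that forms CACGTG. The window of PFKFB4 held no ACGTG.
ANKRD37: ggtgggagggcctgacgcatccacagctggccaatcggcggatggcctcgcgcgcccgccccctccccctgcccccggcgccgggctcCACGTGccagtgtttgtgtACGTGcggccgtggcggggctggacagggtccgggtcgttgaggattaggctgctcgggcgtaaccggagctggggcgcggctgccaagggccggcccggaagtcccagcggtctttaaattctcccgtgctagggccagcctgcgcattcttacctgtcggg
ENO2: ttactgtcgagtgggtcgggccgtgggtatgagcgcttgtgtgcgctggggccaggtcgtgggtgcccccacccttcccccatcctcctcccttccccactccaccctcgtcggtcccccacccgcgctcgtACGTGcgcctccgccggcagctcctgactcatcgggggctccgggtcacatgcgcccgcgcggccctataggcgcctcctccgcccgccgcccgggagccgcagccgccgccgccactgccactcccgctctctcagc

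ANKRD37, an ankyrin repeat protein, fell in HCT116 from 17.8, 16.8 and 20.8 CPM to 3.11, 1.54 and 2.60 CPM. In MCF10A it was at 1.68, 1.13 and 0.888 CPM and then 2.06, 1.57 and 1.35 CPM, where the groups overlap and no response was called. ENO2 fell in HCT116 from 200, 218 and 187 CPM to 73.3, 67.7 and 75.5 CPM and had 4.29, 2.40 and 3.96 CPM and then 4.41, 5.69 and 3.76 CPM in MCF10A. PFKFB4 fell in HCT116 from 65.8, 77.9 and 67.0 CPM to 31.8, 28.2 and 25.6 CPM and rose in MCF10A from 15.2, 14.0 and 13.2 CPM to 22.1, 21.6 and 20.7 CPM. These 3 genes were all higher in HCT116 than in MCF10A before irradiation and came closer to it afterwards. Among the enzymes, the log2 fold changes in HCT116 and MCF10A were -0.89 and 0.53 for ALDOA, -0.93 and -0.11 for LDHA, -0.70 and 0.05 for PGK1 and -0.64 and 0.10 for GAPDH. The mitophagy receptors BNIP3 and BNIP3L had -1.23 and 0.55, and -0.91 and 0.76.

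**Figure D5:**
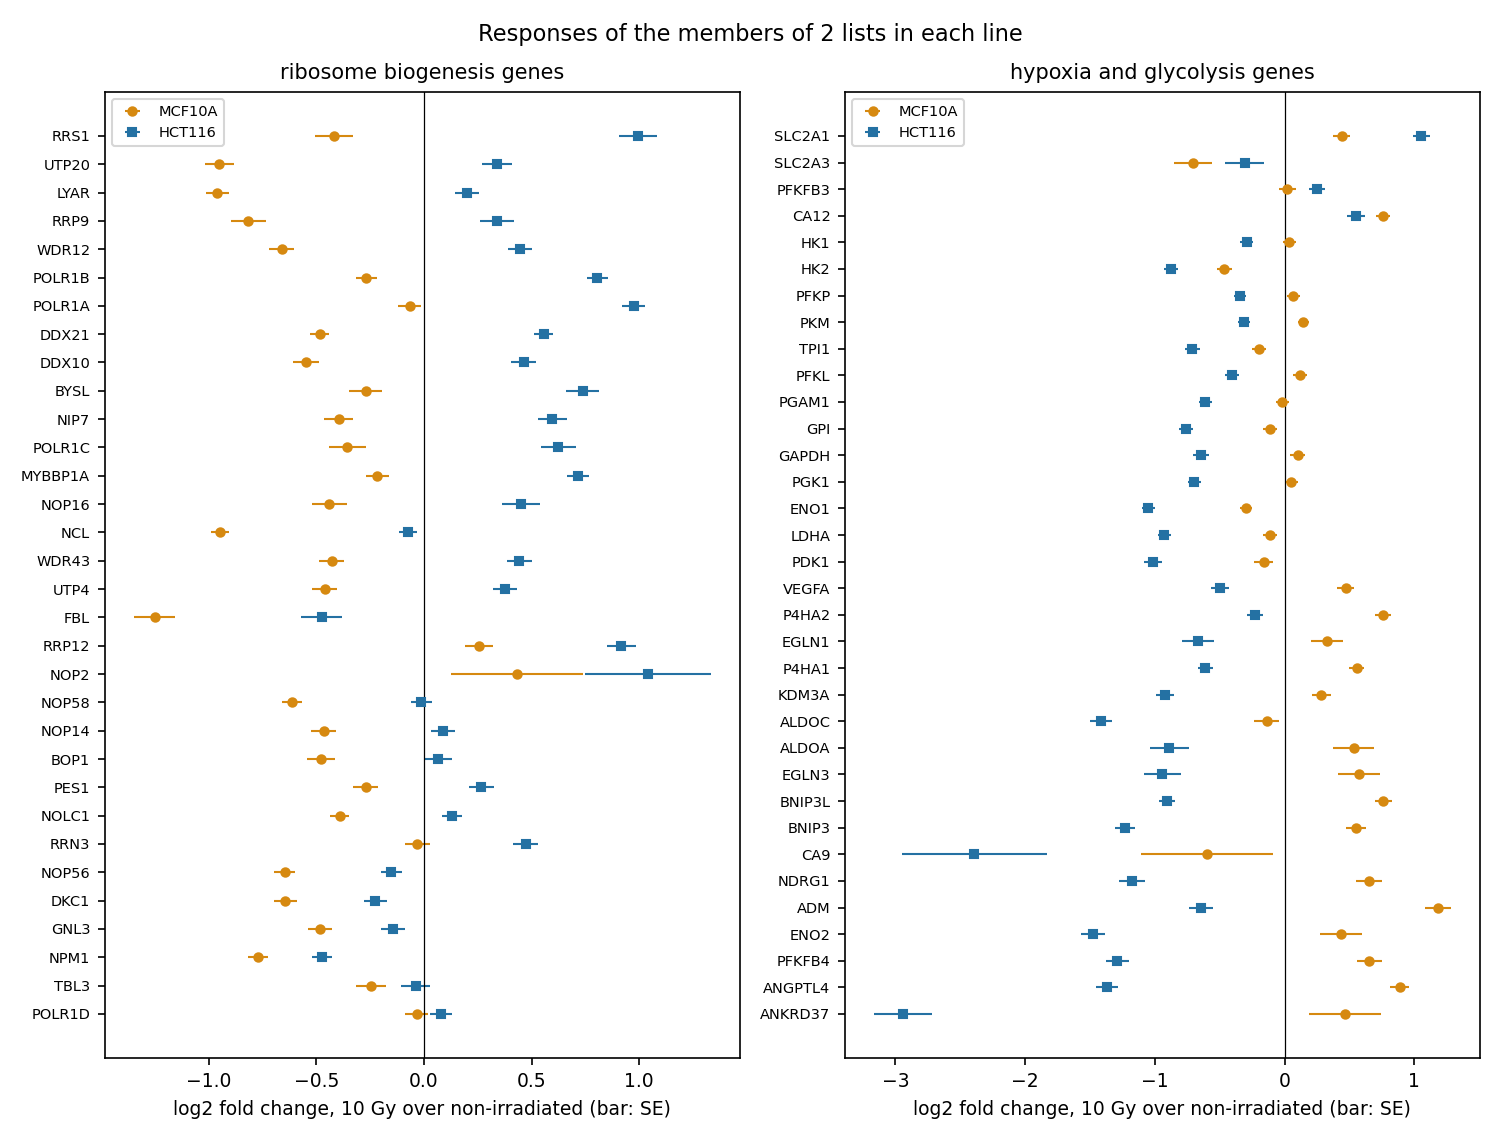
Log2 fold change after 10 Gy of each tested member of the ribosome biogenesis list (left) and of the hypoxia and glycolysis list (right) in MCF10A (circles) and HCT116 (squares), bars showing the SE and members ordered by their difference. On the left HCT116 lies to the right of MCF10A for all 32 members, and on the right it lies to the left for all but PFKFB3, SLC2A3 and SLC2A1 of 34.

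AP-1 and immediate early genes, mostly transcription factors induced by growth factors and stress, also responded lower in HCT116. Of 25 tested, 16 were lower, 0 higher and 9 not called, against 22.5% lower and 16.3% higher over all genes, with a median difference of -0.83 and median responses of -0.15 in HCT116 and 0.55 in MCF10A. EGR1 fell in HCT116 from 218, 196 and 210 CPM to 74.2, 67.6 and 60.7 CPM and rose in MCF10A from 57.2, 55.6 and 64.0 CPM to 73.2, 86.0 and 67.5 CPM. In CPM the irradiated libraries of the lines overlapped for EGR1, but with the scaling factors of the fit those of MCF10A were higher. The EGR1 difference was -2.03 ± 0.114. KLF2 and KLF4 differed by -2.98 and -1.92, and FOS and JUNB by -1.88 and -1.18. Among 20 genes of ERK feedback, a list that shares EGR1, PHLDA1 and others with those above, 11 were lower and 4 higher, against the same shares. The higher ones included CCND1, cyclin D1, at 1.14, and MYC at 0.83, with responses of 0.65 in HCT116 and -0.18 in MCF10A.

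Secreted factors rose more widely in MCF10A. Of 32 tested, 28 rose in MCF10A and 13 in HCT116, against 27.0% and 24.1% of all genes. The difference was lower in HCT116 for 17 and higher for 2, against 22.5% and 16.3%, with a median of -0.62. The interstitial collagenase MMP1 had log2 fold changes of -0.32 in HCT116 and 3.08 in MCF10A, the chemokine CCL5 0.34 and 3.89, and IGFBP3 0.33 and 2.28. MMP1 and CCL5 both started near 0 in MCF10A. MMP1 had 0.294, 0.507 and 0.239 CPM in MCF10A NIR and 3.01, 3.06 and 2.59 CPM in MCF10A IR. CCL5 had 0.0882, 0 and 0 CPM and then 0.331, 0.511 and 0.588 CPM. For CCL5 the difference of -3.55 became -6.75 without MCF10A NIR replicate 1, the only one of that group with a count. Of 26 basal keratins, integrins and laminins, 8 were higher, 12 lower and 6 not called, against the same shares, and the median of -0.39 was -0.16 without HCT116 NIR replicate 1. Among those mentioned after their values were seen, ITGAV, ITGA2, ITGA3, ITGA5 and LAMB3 were lower in HCT116 (-1.29 to -0.75). The keratins KRT5, KRT6A, KRT14 and KRT17 were higher (1.61 to 3.67) from the low levels described above. The other higher members were COL17A1 at 1.62, ITGB8 at 0.75, LAMB1 at 0.25 and LAMC1 at 0.21. Of 32 TGF-beta and matrix genes, 9 were higher and 12 lower, against 16.3% and 22.5% of all genes. The median of -0.09 was that of all genes, and it became 0.01 when mitochondrially encoded and the most abundant genes were left out of the scaling and was also positive with no filter.

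Lysosome and autophagy genes rose more in MCF10A. Of 34 tested, 27 rose in MCF10A and 16 in HCT116, against 27.0% and 24.1% of all genes. The difference was lower in HCT116 for 17, higher for 1 and not called for 16, against 22.5% lower and 16.3% higher, with a median of -0.30. CTSB, the protease cathepsin B, rose in MCF10A from 765, 793 and 779 CPM to 1766, 1857 and 1817 CPM and was at 346, 348 and 366 CPM and then 340, 329 and 354 CPM in HCT116. The cholesterol exporter of lysosomes NPC1, the autophagy kinase ULK1 and the calcium channel MCOLN1 differed by -1.21, -1.16 and -1.10. The higher member, NPC2, was at 0.32 and is mentioned after its value was seen.

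Cholesterol synthesis and uptake genes fell mainly in HCT116. Of 25 tested, 20 fell in HCT116 and 11 in MCF10A, against 26.1% and 20.3% of all genes. The difference was lower in HCT116 for 15 and higher for 3, against 22.5% and 16.3%, with a median of -0.43. Beside STARD4 and INSIG1, described above, SREBF2, the transcription factor of the pathway, had -0.67 in HCT116 and 0.13 in MCF10A. HMGCS1, an early enzyme of the pathway, had a difference of 0.09 that was not called.

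Among stress pathways, 16 of 30 ATF4 and unfolded-protein genes were lower in HCT116, against 22.5% of all genes, and 5 were higher, a share near the 16.3% of all genes. The median was -0.48. DDIT3, the stress factor CHOP, fell in HCT116 from 6.62, 7.24 and 7.96 CPM to 2.89, 2.01 and 4.27 CPM and rose in MCF10A from 1.94, 1.92 and 1.88 CPM to 4.56, 4.05 and 5.17 CPM. HCT116 held more DDIT3 before irradiation. After it, 1 HCT116 library at 4.27 CPM lay within the CPM range of MCF10A, but below that range with the scaling factors of the fit. The DDIT3 difference was -2.59 ± 0.320. Heat shock chaperone genes were higher in HCT116 for 12 of 23 and lower for 5, against 16.3% and 22.5%, with a median of 0.24. HSPA8, the constitutive HSP70 protein, had 0.43 in HCT116 and -0.52 in MCF10A, and the collagen chaperone SERPINH1 0.60 and -0.45. Of 25 NRF2 targets, 7 were higher and 10 lower, against the same shares, and their median of -0.14 became positive without HCT116 IR replicate 2 or MCF10A IR replicate 1.

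Mitochondrially encoded genes were higher in HCT116 for 9 of 13 and lower for 1, MT-ND4, against 16.3% and 22.5% of all genes. Their median difference of 0.39 was between 0.37 and 0.49 over the scalings. All 13 rose in HCT116 and 9 in MCF10A, against 24.1% and 27.0% of all genes. The mitochondrial share of counts given above rose in both lines as well. Of 36 nuclear genes of the respiratory chain, 12 were higher and 4 lower, against 16.3% and 22.5% of all genes, with a median of 0.05. Of 17 clustered histone genes tested of 32 listed, 4 were higher, 1 lower and 12 not called, against the same 16.3% and 22.5%. Histone transcripts mostly lack a poly(A) tail and the library selected for it, and near-identical copies share reads. Of 35 DNA damage repair genes, 28 fell in HCT116 and 30 in MCF10A, against 26.1% and 20.3% of all genes. Their difference was higher for 6, lower for 7 and not called for 22, shares near those of all genes. The repair median of -0.03 became positive under 9 of the 22 alternatives, 2 of scaling, 2 of filtering and 5 that left out a library.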

How the data were processed

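Cultured cells were profiled by mRNA sequencing with poly(A) selection and a strand-marking kit. For each library the authors deposited a table of raw, unscaled counts by gene symbol. The submitters' processing notes name fastp, STAR, featureCounts and GRCh38, with no versions, and the strand setting of the counting is not given in the sources used here. Among counts of 1 to 10, 68.6% were even, so a fit with counts halved was among the alternatives.

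All 12 monoculture libraries entered 1 fit in edgeR 4.0.16 (R 4.3.3) with TMM scaling, 1 mean per group, low counts removed by filterByExpr, and 2-sided quasi-likelihood tests. Benjamini-Hochberg adjustment ran over all 18179 genes that passed the filter, and 6781 of them (37.3%) had a called difference. SE was derived from the log2 value and the F statistic. CPM is a gene's counts per 1000000 counts of its library, without the TMM factors. Depth limits the precision of low levels, such as those under 1 CPM. On simulated counts for 18179 genes, 63% of 100 genes with a log2 response difference of 0.5 and 92% of 100 with 1 were recovered, and 8.28% of calls were false. The changed genes had at least 1 CPM in each group and were changed, up or down at random, in irradiated HCT116 alone. All other genes were given the same response in both lines. Far fewer genes thus differed than the 37.3% called in the data, so these shares do not carry over to the calls reported here.

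The members and the 24 gene lists were chosen with earlier results of these data known, so list counts are descriptions. Genes were named by a rule: at least 1 CPM in each group and 10 CPM in the highest, the difference called, no overlap between treatments in a responding line, and the largest differences (4 per direction of opposite responses, 3 per direction and line for a response in 1 line alone, 2 per kind for the same direction). Also named were CDKN1A, MDM2, GDF15, MKI67 and TOP2A, and up to 4 genes per list. Replicates differed by more than counting noise, with a chi-squared per gene of 4.77 to 14.0, or 2.39 to 7.00 with halved counts. Replicate numbers did not pair the libraries. Some genes that the rule names are not reported here.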

Additional observations from a re-analysis of the deposited data

Results flagged for a closer look

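Each result here stands out because the responses of the lines differed by a test of the difference itself, the contrast of this report. The counts were 2745 genes higher and 3805 lower in HCT116, 560 and 845 opposite responses up and down in HCT116, 1921 and 1722 genes called in HCT116 or in MCF10A alone, and 1339 genes that moved the same way by different amounts.

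For the named genes the response differences (log2, HCT116 minus MCF10A) were as follows. Opposite responses up in HCT116 were BIK at 2.42, FAT2 at 2.33, HOXB4 at 2.26 and PANK1 at 2.07, and those down in HCT116 were EFR3B at -4.96, SPTB at -3.69, FN1 at -2.99 and FBN1 at -2.82. In HCT116 alone, SUSD2 at 3.72, TLR3 at 2.43 and KRT81 at 2.31 rose, and SESTD1 at -2.36, STARD4 at -2.11 and C6orf141 at -2.02 fell. In MCF10A alone, ATP2C2 at -2.09, ABAT at -2.05 and TLCD2 at -1.97 rose, and ERVMER34-1 at 1.46, MT1X at 1.45 and CDH4 at 1.32 fell. Both lines raised CPA4 at 3.01, ZBED2 at 2.01, CDKN1A at 0.50, MDM2 at 0.35, MYL9 at -1.44, DNAJB2 at -1.30 and GDF15 at -0.60. Both lowered INSIG1 at -2.02, CDKN1C at -1.88, MKI67 at -0.34, CHDH at 1.48 and SAPCD2 at 1.25.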

How the results depend on the processing

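At an adjusted p under 0.01, the opposite responses numbered 329 up and 517 down in HCT116, and 751 genes differed in the same direction. With a difference of at least 2-fold required, 422 genes were higher and 1356 lower in HCT116, 135 and 471 were opposite responses up and down in HCT116, 509 and 439 responded in HCT116 or in MCF10A alone, and 151 moved in the same direction. These fall by construction of a stricter call. Leaving out a library gave 532 to 781 opposite responses down in HCT116 and 484 to 726 up. Under the alternatives of scaling, filter, tool, halved counts and block, they numbered 614 to 910 and 524 to 795. Higher calls ranged from 2617 to 3518 and lower calls from 2872 to 3937 there, and the cause of their changing balance was not tested. In 7 of 22 fits the higher calls outnumbered the lower and the opposite responses up in HCT116 those down, the reverse of the order reported: with no filter, with the stricter filter, with mitochondrial and abundant genes left out of the scaling, and without HCT116 IR replicate 2 or any 1 MCF10A IR library. The medians of 5 lists changed sign in some alternatives (DNA replication, DNA damage repair, TGF-beta and matrix, cytosolic ribosomal protein and NRF2 target genes). Of 124 named genes with a called difference, 112 kept the call and the direction in every alternative and 124 kept the direction.

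Replicate numbers were checked for pairing: residuals of libraries with the same number correlated at -0.16 to 0.05 over 18 pairs of libraries, and 1 of 12 libraries matched its own number best. With the replicate number as a block, 2617 genes were higher and 3611 lower.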

Other observations

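Among interferon-stimulated genes, calls were made in both directions. Of 37 tested, 24 rose in HCT116 and 25 in MCF10A, and the difference was higher in HCT116 for 11, lower for 10 and not called for 16. Over all genes tested 24.1% rose in HCT116 and 27.0% in MCF10A, 16.3% were higher and 22.5% lower, so that the lower share of the list was near that of all genes. IFI27, RSAD2 and the transcription factor IRF7 had log2 fold changes of 0.90, 0.29 and -0.92 in HCT116 against 4.60, 3.58 and 0.83 in MCF10A. The first 2 started near 0 in MCF10A. IFI27 had 0.118, 0.282 and 0.171 CPM in MCF10A NIR and 4.52, 4.96 and 4.20 CPM in MCF10A IR. RSAD2 had 0.0588, 0.0563 and 0.137 CPM and then 1.03, 1.02 and 0.882 CPM. On the higher side, IFIT3 had 1.63 and 0.64 and the membrane protein IFITM1 0.56 and -1.02 (both mentioned after their values were seen). Antigen presentation genes were lower in HCT116 for 9 of 19 and higher for 5, against the same shares. HLA-F had -0.60 in HCT116 and 0.93 in MCF10A, and the immunoproteasome subunit PSMB10 2.13 and -0.48.

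Of 15 Wnt targets tested, 5 were higher and 6 lower, and of 16 keratinocyte differentiation genes 3 were higher and 1 lower, counts that are to be read against the same shares.

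The mixed cultures of both lines, which took no part in choosing the classes, were read for the opposite genes with the same test in their own 6 libraries. Of the 15888 genes tested in both fits, 50.5% were called in the mixtures, 24.0% up and 26.5% down. Of the 560 genes up in HCT116, 557 were tested, 341 were called, and 339 of these moved in the HCT116 direction. Of the 845 genes down in HCT116, 839 were tested, 561 were called, 552 moved in the HCT116 direction and 9 in the MCF10A direction. FN1 was among the latter, with a log2 fold change of 1.27 in the mixture. The mixtures hold RNA of both lines, and their values were not split by line. KRT81, KRT5 and H2BC11, abundant in MCF10A with no called response there, had log2 fold changes of 2.75, 1.89 and -0.37 in the mixture. The part that the share of each line has in the mixture values was not tested. The direction counts therefore do not tell which line moved.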
